A study of Rattus norvegicus with 8 samples.

Results

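Proteasome subunits and ubiquitin-conjugating enzymes were followed across the brains of rats 2 h after a stroke operation or a sham operation, with and without pretreatment with candesartan, a blocker of the angiotensin II type 1 receptor. The members were the genes whose platform annotation gave a single symbol beginning with Psma, Psmb, Psmc, Psmd, Psme or Ube2, and a gene with several probe sets was represented by the one with the highest mean signal. There were 65 such genes, on 80 probe sets, among the 10412 genes with a single symbol. They comprised 36 proteasome subunits, activators and assembly factors, 27 Ube2 genes, and 2 genes that share only the prefix, Psmc3ip and Psme3ip1, whose products are partners of other proteins and not proteasome subunits. The levels of 61 members were tested. Psmb9, Ube2d2b, Ube2l6 and Ube2t were not, because their signal did not exceed 916, the 40th percentile of all values, on at least 2 of the 8 arrays.

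Total RNA came from part of the right hemisphere of male Wistar rats aged 7 weeks and weighing 160 to 200 g. It was hybridised to Affymetrix RAE 230A arrays, and each array carried a pool of 2 rats. The 4 groups held 2 independent pools each: sham operation after vehicle (0.9% NaCl), middle cerebral artery occlusion (MCAO) after vehicle, sham operation after candesartan, and MCAO after candesartan. Vehicle or candesartan at 0.1 mg/kg was injected under the skin 2 times a day for 5 days, and the right middle cerebral artery was occluded for 90 min and then reopened. The treatment protocol of the second MCAO candesartan array names no pretreatment, and it was placed in its group by source name and description. Pooling hides the spread between single animals, and the p-values given measure the spread between pools.

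The proteasome is the protease that degrades most short-lived and damaged proteins in the cell. Its 20S core is a barrel of alpha and beta rings with the active sites facing inward, and the 19S cap recognises ubiquitin chains, unfolds the substrate with a ring of ATPases and feeds it into the core. Ubiquitin reaches the substrate through a relay of an activating enzyme (E1), a conjugating enzyme (E2, the Ube2 family) and a ligase (E3). In neurons the system clears oxidised and misfolded proteins and turns over synaptic proteins, and ubiquitin conjugates are known to accumulate after cerebral ischemia and reperfusion.

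Transcription of proteasome genes can be raised together by Nfe2l1, a factor that binds antioxidant response elements when proteasome activity is short. The stretch from 250 bases before to 50 bases after each transcription start, from RefSeq on assembly GRCr8, was available for 59 of the 65 members and was searched on both strands for TGACNNNGC, the core of such an element. It held a match in 14 of 59 members (23.7%), among them 7 of 34 proteasome genes (20.6%) and 7 of 23 Ube2 genes (30.4%), beside 12.2% of all 27457 genes with such a stretch. The CCAAT box, searched as CCAAT, was found in 47.5% of the members and 37.7% of all genes. The AP-1 site TGANTCA, which the Fos protein binds as a dimer with Jun, was found in 0 of 59 members and in 7.33% of all genes. The antioxidant and AP-1 letters can fall on the same bases, and a match describes the sequence and is not a bound site. In the members the share of G and C in the 250 bases upstream ran from 45.2% (Psmc1) to 83.6% (Ube2e3). It was not taken for all genes, so the part of base composition in these motif shares was not tested. The 120 bases upstream of 3 members are printed, chosen among the 14 with a match: Psmb5, a catalytic subunit with the steadiest signal of all members, Psmb2, a beta subunit with lower MCAO pools at each pretreatment, and Psme4, the member with the largest difference after MCAO in vehicle rats. Capitals mark the antioxidant response element core, which in Psme4 lies on the opposite strand, and each sequence runs 5′ to 3′ along the gene.
Psmb5, chr15:32047380-32047499, minus strand: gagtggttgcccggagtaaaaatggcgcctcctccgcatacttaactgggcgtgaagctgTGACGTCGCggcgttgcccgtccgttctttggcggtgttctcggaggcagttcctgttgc
Psmb2, chr5:144254938-144255057, plus strand: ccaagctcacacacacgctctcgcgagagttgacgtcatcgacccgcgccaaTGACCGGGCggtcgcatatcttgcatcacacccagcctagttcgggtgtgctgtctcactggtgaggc
Psme4, chr14:108706523-108706642, plus strand: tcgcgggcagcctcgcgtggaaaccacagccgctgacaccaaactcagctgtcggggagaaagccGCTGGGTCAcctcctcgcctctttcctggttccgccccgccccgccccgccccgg
The first capital letter lies 60 bases before the start in Psmb5, 68 in Psmb2 and 55 in Psme4.

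Brain RNA was present by its markers: 12 of 13 neuronal, 9 of 9 astrocytic and 8 of 9 oligodendrocytic markers passed the filter. The operation was visible in Fos, an immediate early gene, which rose by 2.87 on the log2 scale in vehicle rats and by 2.65 in candesartan rats, and in Hspa1a, the inducible Hsp70 chaperone, which rose by 4.14 and 2.57 (limma adjusted p from 3.2e-05 to 0.00486). These rises use all arrays. In MCAO candesartan the 2 pools of Hspa1a were at 5794 and 14082, and those of Fos at 6332 and 7695. The second MCAO candesartan array stood apart. Its correlation with the others averaged 0.960, against 0.976 to 0.978 for the rest. The 8 oligodendrocyte markers had a median deviation of -0.12 from their means there, and their summed signal was 383785, against 265980 to 293443 on the other arrays. This sum was high through Mbp, the myelin basic protein gene, at 231194 there and 100814 to 122217 elsewhere; the 7 others summed to 152592 there and to 163831 to 186764 elsewhere. The 12 neuronal markers summed to 281065 and 306364 in MCAO candesartan and to between 230998 and 262184 in the other groups. Their median deviations were 0.068 and 0.11, against -0.15 to 0.064 elsewhere. Snap25 stood at 86194 and 113989, against 55509 to 73519 elsewhere, and Camk2a at 15879 and 10932, against 2217 to 6655. Of the 12 markers, 8 had a difference above 0 for MCAO with candesartan, and 9 from the first pool alone. Below 0 with both pools were Eno2 (-0.22), Tubb3 (-0.22), Map2 (-0.083) and Gap43 (-0.027). The sums were not taken without Snap25 and Camk2a, so they do not show a rise of the neuronal markers in general. The 6 tested hypothalamic and thalamic markers of 9 had low median deviations on both MCAO candesartan arrays, -0.19 and -0.24, against -0.065 to 0.35 elsewhere. Their summed signal was 25243 and 31728, against 27769 to 38604 elsewhere, and 2 of the 6 were above 0 for MCAO with candesartan. The 2 tested blood markers of 8 also had low medians, with -0.22 and -0.62, against -0.024 to 0.30. The 9 astrocyte markers had -0.23 on the first and 0.16 on the second MCAO candesartan array, and -0.11 to 0.14 elsewhere. The 9 tested microglial markers of 11 had -0.13 and 0.066, against -0.077 to 0.30, the 6 endothelial and mural markers of 10 had 0.078 and 0.14, against -0.16 to 0.17, and the 3 choroid plexus markers of 7 had -0.18 and 0.11, against -0.044 to 0.16. The part of these shifts in the results was not tested; the main values that use the MCAO candesartan group are given with this array and then without it, from the first pool alone. Without it the difference changed sign in 11 of 61 members for MCAO with candesartan, 19 for candesartan after MCAO, 9 for the interaction and 14 for MCAO over both pretreatments. Sign changes were counted for the members alone, so whether the members depended more on this array than other genes was not tested. In pooled tissue, fewer cells of a type and less RNA per cell cannot be told apart.

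No member was called in any comparison. Across the 8 arrays the ratio of the highest to the lowest array had a median of 1.38 over the 61 tested members. It was under 1.5 in 42 of them, smallest for Psmb5 (1.09) and over 2 only for Psmc3ip (2.78). The ratio was not taken over all tested probe sets, so whether the members were steadier than other genes was not tested. The limma fit, adjusted over all 10310 tested probe sets, called 0 of 61 members in each of the 4 group comparisons, in the interaction of operation and pretreatment, and in MCAO against sham over both pretreatments. At an unadjusted p under 0.05 the members numbered 3 for MCAO with vehicle, 3 for MCAO with candesartan, 0 for candesartan after sham, 4 for candesartan after MCAO, 4 for the interaction and 3 for MCAO over both pretreatments. The share of all tested probe sets that was called is the background to these counts: 0.262% for MCAO with vehicle, 0.242% for MCAO with candesartan, 0% for candesartan after sham, 0.0679% for candesartan after MCAO, 0.0194% for the interaction and 0.417% for MCAO over both pretreatments. At an unadjusted p under 0.05 the background shares were 7.04%, 12.4%, 3.92%, 13.1%, 8.87% and 9.52% in the same order, beside 4.92%, 4.92%, 0%, 6.56%, 6.56% and 4.92% of the members.

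**Figure D1:**
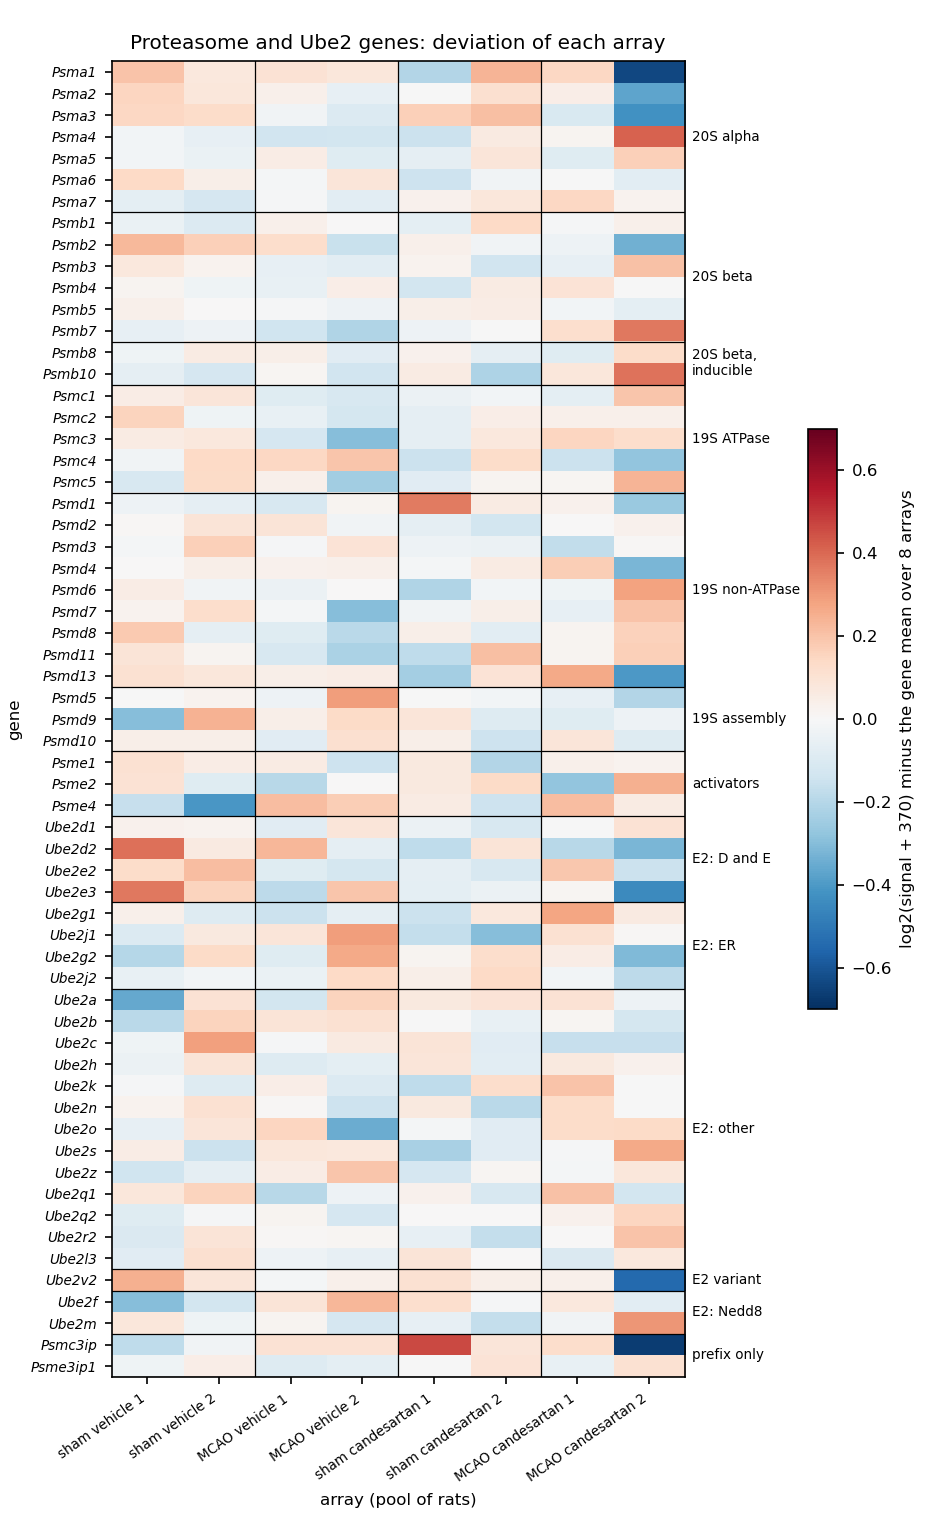
Deviation of each array from the mean of the 8 arrays for the 61 tested members (rows, grouped by role), as log2(signal + 370), with blue below and red above the gene's mean. The second MCAO candesartan array, the right-hand column, holds the highest or the lowest value of 34 of the 61 members. This count was made for the members alone, and the array also lies farthest from the mean over all tested probe sets.

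After MCAO in vehicle rats the differences between group means ran from -0.28 (Psmc3 and Ube2e2) to 0.48 (Psme4) on the log2(signal + 370) scale, on which all differences here are given and which understates the change of dim genes. The 35 tested proteasome genes had a median of -0.05 and the 24 tested Ube2 genes a median of -0.04, beside 0.01 for all tested probe sets. The difference was below 0 in 24 of 35 proteasome genes and in 14 of 24 Ube2 genes. It was above 0 in 22 of 61 members (36.1%) and in 52.5% of all tested probe sets. Both MCAO pools lay below both sham pools in 14 proteasome genes and above them in 3. Over all 61 members 20 lay below and 8 above without overlap, while 20.6% of all tested probe sets lay below and 24.6% above. No member differed by more than 0.5 in size, against 2.99% of all tested probe sets. The 95% interval of the difference stayed within 1 on either side of 0 for 61 of 61 members, and for 9975 of all 10310 tested probe sets.

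After MCAO in candesartan rats the medians lay on the other side of 0, at 0.04 for the proteasome genes and 0.08 for the Ube2 genes, beside -0.03 for all tested probe sets. The differences were above 0 in 22 of 35 proteasome genes and 14 of 24 Ube2 genes, and in 36 of 61 members (59.0%) against 44.7% of all tested probe sets. They ran from -0.54 (Psmc3ip) to 0.31 (Psmb10), and 60 of 61 intervals stayed within 1 of 0, Psmc3ip being the exception and also the 1 member over 0.5 in size (5.73% of all tested probe sets). Of all 10310 tested probe sets, 9794 had intervals within 1 of 0. Without the second MCAO candesartan array the medians were 0.033 and 0.065. Without overlap, 12 members were higher and 9 lower, against 16.9% and 21.4% of all tested probe sets. These medians are small beside the scaling between arrays: with arrays centred on their medians the proteasome genes had -0.113 with vehicle and 0.106 with candesartan, and with quantile normalization the second value was 0.010. Centring shifts all probe sets of an array by the same amount. It therefore moves the medians of the members and of all tested probe sets alike, and does not widen the gap between them.

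Candesartan against vehicle after sham operation gave medians of -0.04 for the proteasome genes and -0.08 for the Ube2 genes, beside 0.01 for all tested probe sets, with 10 members higher and 12 lower without overlap (background 18.9% and 14.9%). Of the members 34.4% were above 0, against 52.7% of all, and 0 exceeded 0.5 in size, against 1.71%. Candesartan against vehicle after MCAO gave 0.04 for both sets, beside -0.03 for all, and 0.054 and 0.001 without the second MCAO candesartan array. There 13 members were higher and 8 lower without overlap, against 18% and 23.8% of all tested probe sets, and 9 of the 13 were proteasome genes. Of the members 54.1% were above 0, against 44.2% of all, and 0 exceeded 0.5 in size, against 5.98%. These comparisons share their control pools with the MCAO comparisons, so their values are not independent of each other.

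**Figure D2:**
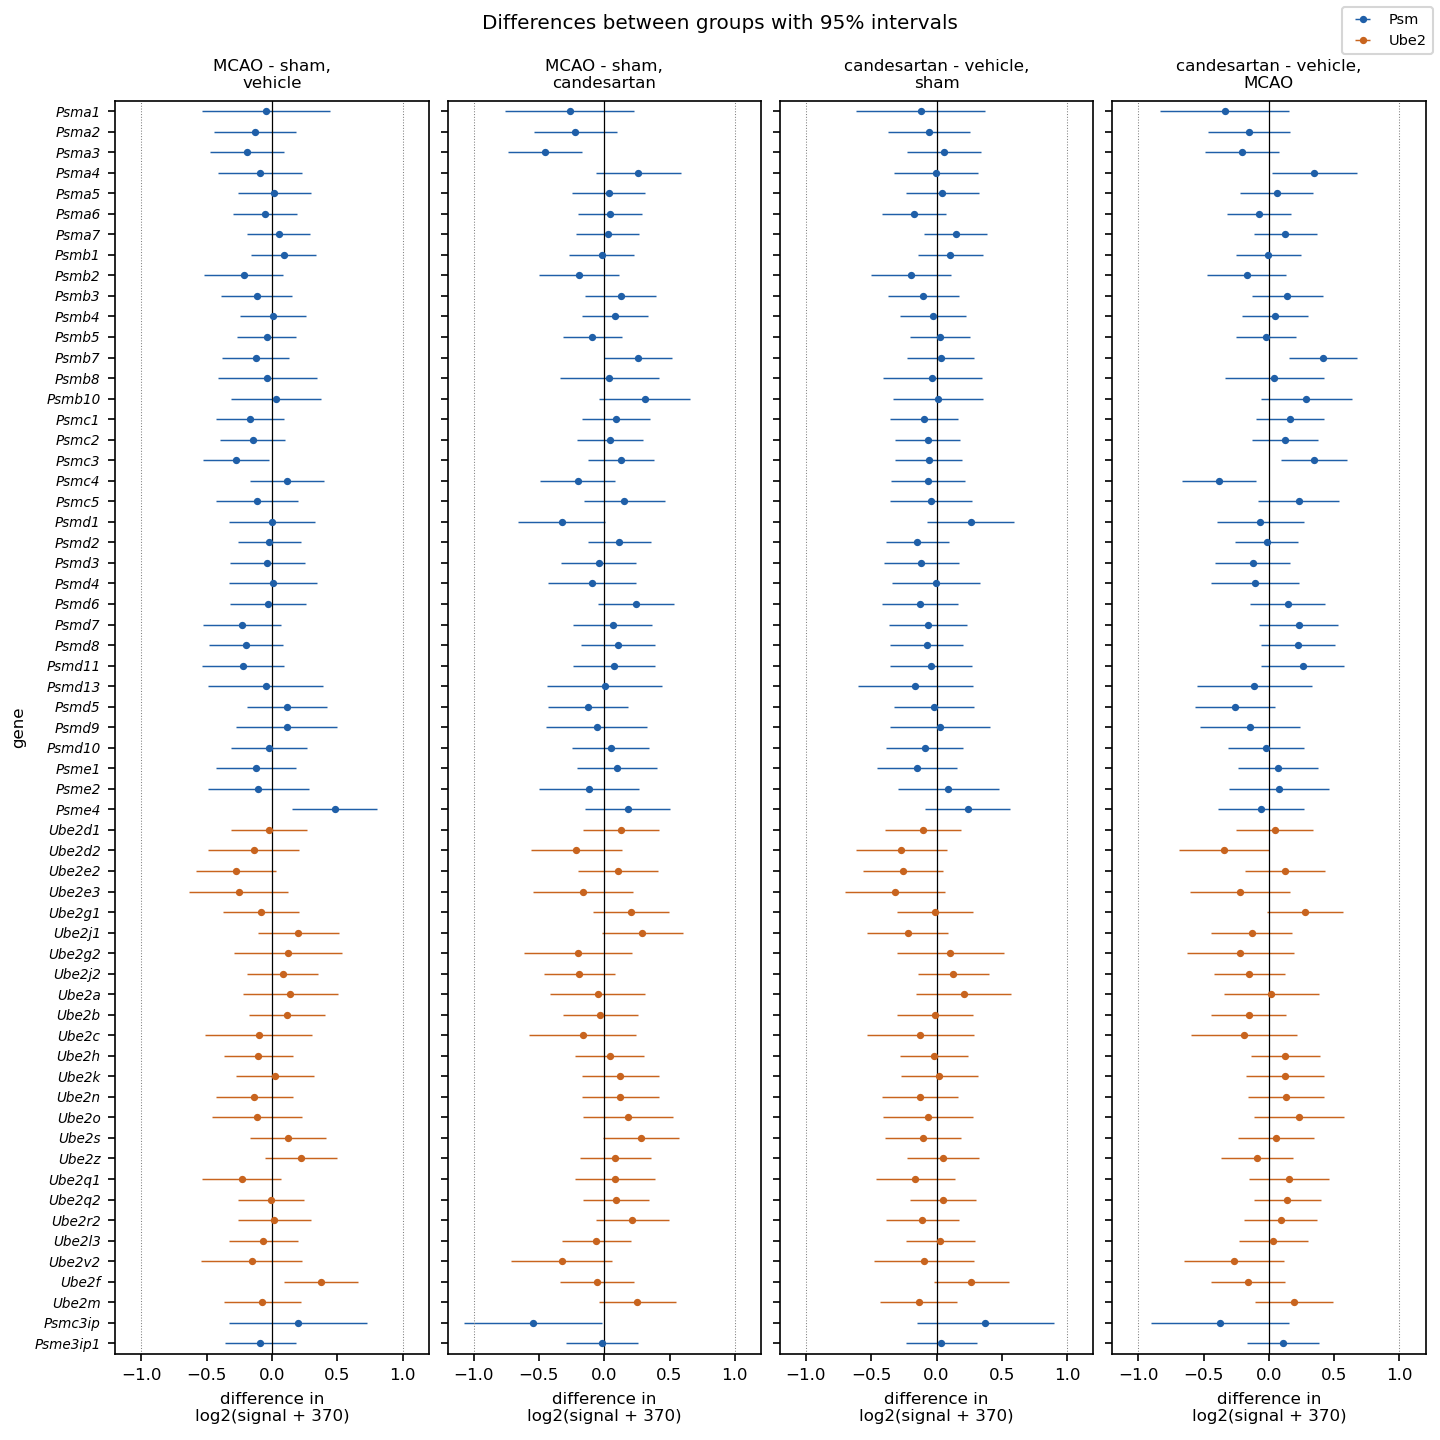
Difference between group means in log2(signal + 370) for each tested member in the 4 group comparisons; points are limma estimates, bars their 95% intervals, and dotted lines mark a difference of 1 on the log2 scale. The median half-width of the intervals in MCAO with vehicle is 0.293, and all 61 intervals there lie between the dotted lines. Of all 10310 tested probe sets, which are not drawn, 9975 have intervals within these limits in that comparison.

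The alpha ring of the 20S core, which gates entry of substrates, was measured by 7 genes. Psma3 had the smallest p of all members for MCAO with candesartan. Its signal was 6438 and 6359 after sham with vehicle, 5701 and 5411 after MCAO with vehicle, 6558 and 6768 after sham with candesartan and 5347 and 4226 after MCAO with candesartan. All 4 MCAO pools lay below all 4 sham pools, and the MCAO candesartan pools were the lowest. The difference was -0.19 ± 0.13 (SE) with vehicle (limma adjusted p = 0.84), -0.46 ± 0.13 with candesartan (unadjusted p = 0.00472, adjusted p = 0.235) and -0.32 ± 0.091 over both pretreatments (adjusted p = 0.235). When the second MCAO candesartan array was left out, the value with candesartan was -0.30 and that over both pretreatments -0.25.

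Other alpha subunits moved apart on that one array. Psma1 had signals of 9083 and 8308 after sham with vehicle, 8472 and 8325 after MCAO with vehicle, 6783 and 9335 after sham with candesartan and 8734 and 4921 after MCAO with candesartan. Its 7 other pools spanned 6783 to 9335, and the lowest value was that of the second MCAO candesartan pool; MCAO minus sham with candesartan was -0.26 with it and 0.13 without it. Psma2 showed the same array as its lowest, with 8691 and 8254 after sham with vehicle, 7970.4 and 7476 after MCAO with vehicle, 7779 and 8454 after sham with candesartan and 8033 and 5936 after MCAO with candesartan. Psma4 had its highest value there, with 4722 and 4581 after sham with vehicle, 4337 and 4345 after MCAO with vehicle, 4279 and 5015 after sham with candesartan and 4858 and 6512 after MCAO with candesartan. For Psma4 candesartan minus vehicle after MCAO was 0.35 ± 0.15 (adjusted p = 0.356), and 0.15 without the array. The remaining 3 genes, Psma5, Psma6 and Psma7, had differences between -0.17 and 0.15 in the 4 group comparisons, and between -0.091 and 0.19 in the comparisons with the MCAO candesartan group once that array was left out. Psma6, with one of the 3 highest mean signals of the members' probe sets, had 19591 and 18243 after sham with vehicle, 17576 and 18814 after MCAO with vehicle, 16043 and 17427 after sham with candesartan and 17697 and 16859.5 after MCAO with candesartan, and Psma7 had 8618 and 8306 after sham with vehicle, 8994 and 8578 after MCAO with vehicle, 9245 and 9597 after sham with candesartan and 10037 and 9203 after MCAO with candesartan. Neither separated MCAO from sham.

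Of the constitutive beta subunits with a catalytic threonine, Psmb5 carries the chymotrypsin-like activity and Psmb7 the trypsin-like activity, and Psmb6, the caspase-like subunit, is not analysed here. Psmb5 was almost level, with 19999 and 19606 after sham with vehicle, 19421 and 19073 after MCAO with vehicle, 20073 and 20276 after sham with candesartan and 19269.5 and 18583 after MCAO with candesartan. All 4 MCAO pools lay below all 4 sham pools, and the difference was -0.066 ± 0.073 over both pretreatments (adjusted p = 0.817). Its 95% interval ran from -0.23 to 0.096, and the value without the second MCAO candesartan array was -0.053.

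Psmb7 had the largest difference of all members for candesartan after MCAO. Its signal was 14876 and 15109.5 after sham with vehicle, 14048 and 13377 after MCAO with vehicle, 15136 and 15511 after sham with candesartan and 16849 and 20167 after MCAO with candesartan. The MCAO pools were the lowest of all with vehicle and the highest of all with candesartan. MCAO minus sham was -0.13 ± 0.12 with vehicle and 0.26 ± 0.12 with candesartan, and the difference between these effects was 0.39 ± 0.17 (unadjusted p = 0.0407, adjusted p = 0.551). Candesartan minus vehicle after MCAO was 0.42 ± 0.12 (unadjusted p = 0.00475, adjusted p = 0.251). Without the second MCAO candesartan array these 3 values that use its group were 0.13, 0.26 and 0.29. Of the beta subunits without a catalytic site, Psmb2 had 9661 and 9248 after sham with vehicle, 8934 and 7311 after MCAO with vehicle, 8383 and 8055 after sham with candesartan and 7962 and 6409.5 after MCAO with candesartan, so both MCAO pools were lower than both sham pools at each pretreatment. The difference was -0.22 ± 0.14 with vehicle and -0.19 ± 0.14 with candesartan (adjusted p = 0.825 and 0.591), and the latter was -0.043 without the second MCAO candesartan array. Psmb4, with one of the 3 highest mean signals, had 17785 and 17169 after sham with vehicle, 16926 and 18162 after MCAO with vehicle, 16046 and 18271 after sham with candesartan and 18773 and 17528 after MCAO with candesartan, and its groups overlapped.

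The inducible catalytic subunits Psmb8, Psmb9 and Psmb10 replace Psmb5, Psmb6 and Psmb7 in the immunoproteasome, the form that interferon induces for antigen processing. No level is compared between probe sets here, but 1 of the 3 did not pass the filter. Psmb8 had 1008 and 1092 after sham with vehicle, 1076 and 958 after MCAO with vehicle, 1062 and 977 after sham with candesartan and 957 and 1165 after MCAO with candesartan, and its largest difference in the 4 comparisons was 0.042, for candesartan after MCAO, and this became -0.062 without the second MCAO candesartan array. Psmb9 stayed below the filter on all 8 arrays, with 493 and 756 after sham with vehicle, 422 and 646 after MCAO with vehicle, 703 and 614 after sham with candesartan and 453 and 545 after MCAO with candesartan. Psmb10 had 1868 and 1785 after sham with vehicle, 1995 and 1764 after MCAO with vehicle, 2067 and 1642 after sham with candesartan and 2103 and 2669.9 after MCAO with candesartan. Its MCAO candesartan pools were the highest, 0.31 ± 0.16 above sham candesartan (adjusted p = 0.454), and 0.16 without the second MCAO candesartan array.

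In the 19S cap, 5 of the ATPase genes were tested. Psmc3 had signals of 8945 and 9048 after sham with vehicle, 7868 and 6894 after MCAO with vehicle, 8194 and 9059 after sham with candesartan and 9548 and 9356 after MCAO with candesartan. Both MCAO vehicle pools were the lowest of the 8 and both MCAO candesartan pools the highest. MCAO minus sham was -0.28 ± 0.12 with vehicle (unadjusted p = 0.0366, adjusted p = 0.654) and 0.13 ± 0.12 with candesartan, and the interaction was 0.40 ± 0.16 (adjusted p = 0.551). Candesartan minus vehicle after MCAO was 0.34 ± 0.12 (adjusted p = 0.275). Leaving out the second MCAO candesartan array, the last 3 values were 0.14, 0.42 and 0.36, as large as with it.

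Psmc4, another ATPase of the same ring, had values of the opposite sign. Psmc4 had 8881 and 9996 after sham with vehicle, 10053 and 10403 after MCAO with vehicle, 8115 and 9943 after sham with candesartan and 8120.3 and 7403 after MCAO with candesartan. The MCAO vehicle pools were the highest, and candesartan minus vehicle after MCAO was -0.38 ± 0.13 (unadjusted p = 0.0132, adjusted p = 0.275), and -0.32 without the second MCAO candesartan array. Of the other ATPases, Psmc1, Psmc2 and Psmc5 had differences of -0.17, -0.15 and -0.11 for MCAO with vehicle and 0.16, 0.12 and 0.23 for candesartan after MCAO, the latter 0.033, 0.12 and 0.12 without the second MCAO candesartan array. Both comparisons use the MCAO vehicle pools, with opposite sign.

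Of the 9 non-ATPase genes of the cap, Psmd4, the subunit that binds ubiquitin chains, had 6546 and 6745 after sham with vehicle, 6673 and 6705 after MCAO with vehicle, 6464 and 6803 after sham with candesartan and 7406 and 5158 after MCAO with candesartan. Its pools overlapped in all 4 comparisons, and the one low value was that of the second MCAO candesartan array. MCAO minus sham with candesartan was -0.095 with that array and 0.15 without it. Psmd14, the deubiquitinase of the lid, is not analysed here. Psmd1, the scaffold of the base, had 2801 and 2743 after sham with vehicle, 2635 and 2920.4 after MCAO with vehicle, 3815 and 3012 after sham with candesartan and 2949 and 2349 after MCAO with candesartan, and MCAO minus sham with candesartan was -0.32 ± 0.15 (adjusted p = 0.418) and -0.18 without that array. Psmd7, the lid partner of Psmd14, had a difference of -0.23 ± 0.14 for MCAO with vehicle (adjusted p = 0.792). The 3 assembly factors of the base, Psmd5, Psmd9 and Psmd10, had differences of 0.12, 0.11 and -0.022 for MCAO with vehicle and of -0.26, -0.15 and -0.021 for candesartan after MCAO (-0.19, -0.17 and 0.065 without the second MCAO candesartan array).

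Among the activators that cap the core without ATP, Psme4, which encodes the large single-chain activator PA200, had the largest difference of all members for MCAO with vehicle. Its signal was 1715 and 1385 after sham with vehicle, 2340.0 and 2261 after MCAO with vehicle, 2052 and 1739 after sham with candesartan and 2338 and 2053 after MCAO with candesartan. All 4 MCAO pools lay above the highest sham pool, at the closest 2053.0 against 2052.1, and the sham vehicle pools were the lowest. MCAO minus sham was 0.48 ± 0.15 with vehicle (unadjusted p = 0.00788, adjusted p = 0.449), 0.18 ± 0.15 with candesartan (adjusted p = 0.639) and 0.33 ± 0.10 over both (adjusted p = 0.299). Without the second MCAO candesartan array the last 2 values were 0.26 and 0.37. Of its 2 other probe sets, 1 gave 0.35 with vehicle and -0.0022 with candesartan, and the other gave 0.34 and -0.40. From the first MCAO candesartan pool alone, the values with candesartan were -0.018 and -0.024. The 3 probe sets thus shared their sign with vehicle and disagreed with candesartan.

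Psme1 and Psme2, the interferon-inducible subunits of the PA28 activator ring, did not separate the groups. Psme1 had 2883 and 2764 after sham with vehicle, 2777 and 2366 after MCAO with vehicle, 2801 and 2251 after sham with candesartan and 2731 and 2699 after MCAO with candesartan, and Psme2 had 2926 and 2526 after sham with vehicle, 2317 and 2710.0 after MCAO with vehicle, 2847 and 2997 after sham with candesartan and 2164 and 3274 after MCAO with candesartan. Their pools overlapped in all 4 comparisons, with differences from -0.15 to 0.098. Without the second MCAO candesartan array Psme1 had 0.11 for MCAO with candesartan and 0.080 for candesartan after MCAO, and Psme2 moved from -0.12 to -0.38 and from 0.079 to -0.18. Psme3 is not analysed here.

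**Figure D3:**
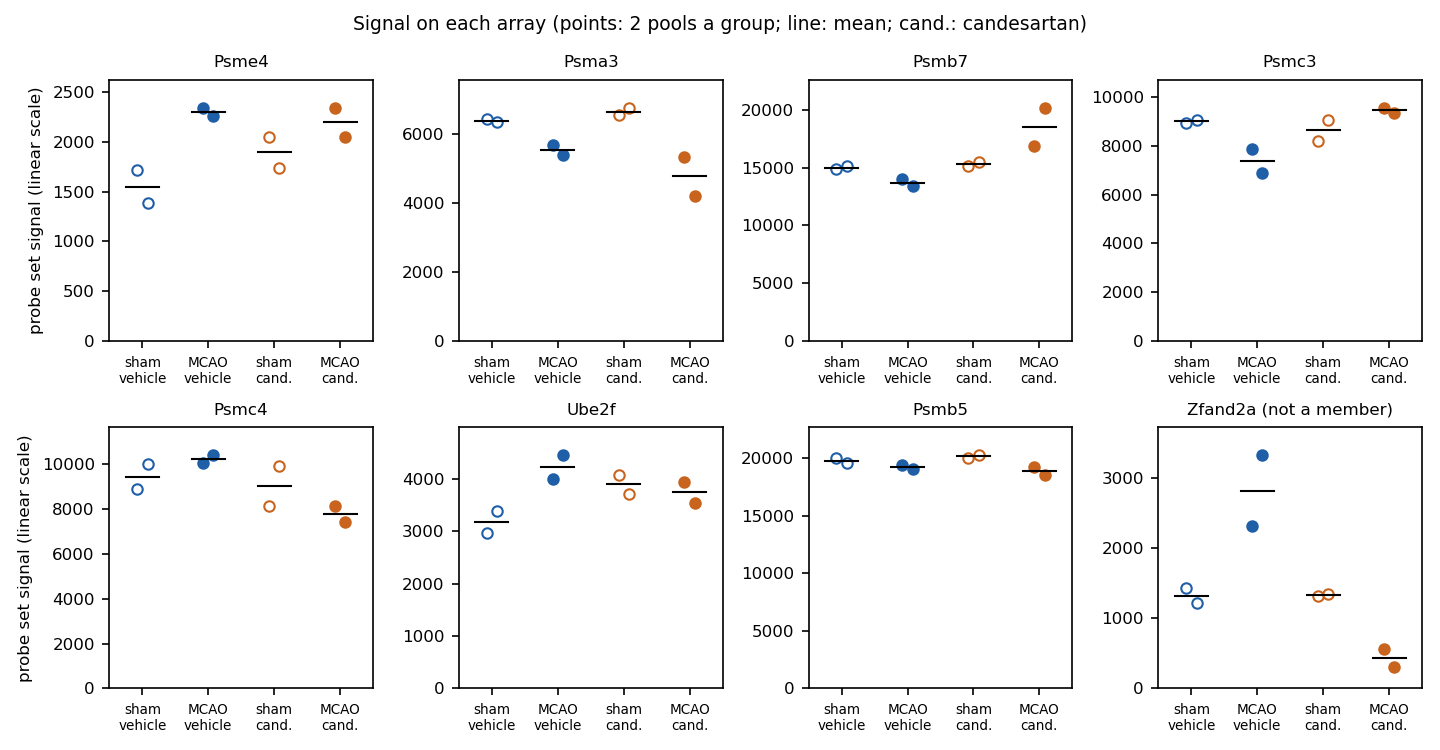
Probe set signal (linear scale) on each of the 8 arrays for 7 members and for Zfand2a, a proteasome-associated gene outside the membership rule; open points are sham pools, filled points MCAO pools, and lines group means. Psmb5 spans 18583 to 20276, while the Zfand2a pools of MCAO candesartan (568 and 305) lie below those of MCAO vehicle (2324 and 3332).

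Among the Ube2 genes, Ube2f, the conjugating enzyme that loads Nedd8 onto Cul5 ligases, had 2969 and 3385 after sham with vehicle, 3998 and 4452 after MCAO with vehicle, 4078 and 3714 after sham with candesartan and 3949.7 and 3539 after MCAO with candesartan. The sham vehicle pools were the lowest and the second MCAO vehicle pool the highest. MCAO minus sham with vehicle was 0.37 ± 0.13 (unadjusted p = 0.0145, adjusted p = 0.521), and candesartan minus vehicle after sham was 0.27 ± 0.13 (adjusted p = 1). MCAO minus sham with candesartan was -0.053 ± 0.13, and the interaction was -0.43 ± 0.18 (unadjusted p = 0.0391, adjusted p = 0.551), or 0.019 and -0.35 without the second MCAO candesartan array. Ube2m, which loads Nedd8 onto the other cullins, had 9035 and 8339.8 after sham with vehicle, 8644 and 7843 after MCAO with vehicle, 8184 and 7559 after sham with candesartan and 8390.3 and 10647 after MCAO with candesartan, with its high value on the second MCAO candesartan array; MCAO minus sham with candesartan was 0.25 with it and 0.089 without it. Ube2l6, which conjugates the interferon-induced modifier Isg15, passed the filter on 1 array only, with 724 and 466 after sham with vehicle, 883 and 879 after MCAO with vehicle, 751 and 984 after sham with candesartan and 533 and 474 after MCAO with candesartan.

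The Ube2d and Ube2e enzymes serve many RING ligases. Ube2d1 had 2059 and 2051 after sham with vehicle, 1887 and 2159.6 after MCAO with vehicle, 1944 and 1831 after sham with candesartan and 2008 and 2182 after MCAO with candesartan. Both sham candesartan pools of Ube2d1 lay below both sham vehicle pools and both MCAO candesartan pools, by differences of -0.10 for candesartan after sham and 0.13 for MCAO with candesartan (0.075 without the second MCAO candesartan array). Ube2d2 had 7649 and 6035 after sham with vehicle, 6833 and 5505 after MCAO with vehicle, 5050.0 and 6158 after sham with candesartan and 4989.5 and 4543 after MCAO with candesartan. Ube2d2 was lower in both MCAO candesartan pools than in both MCAO vehicle pools, a difference of -0.34 ± 0.16 (adjusted p = 0.387), or -0.28 without the second MCAO candesartan array. Ube2e2 had 3302 and 3524 after sham with vehicle, 2793 and 2711 after MCAO with vehicle, 2849 and 2739 after sham with candesartan and 3454 and 2659.9 after MCAO with candesartan, so both sham vehicle pools lay above both MCAO vehicle pools and both sham candesartan pools, by differences of -0.28 ± 0.14 and -0.26 ± 0.14 (adjusted p = 0.731 and 1). Ube2e3 was -0.32 ± 0.17 for candesartan after sham. All 4 tested Ube2d and Ube2e genes were below 0 in that comparison and in MCAO with vehicle, and 0 of 4 had an unadjusted p under 0.05 in either; both comparisons subtract the same sham vehicle pools. The other tested probe sets of Ube2d1 and Ube2d2 went the other way: that of Ube2d1 gave 0.50 (unadjusted p = 0.0101, adjusted p = 1) and 0.49, and those of Ube2d2 gave 0.16 and 0.022 for candesartan after sham and 0.029 and 0.023 for MCAO with vehicle. That of Ube2e3 kept its sign, with -0.25 for candesartan after sham and -0.23 for MCAO with vehicle. For MCAO with candesartan the other probe set of Ube2d1 gave -0.24, and -0.23 without the second MCAO candesartan array. For candesartan after MCAO those of Ube2d2 gave 0.047 and -0.75, or 0.13 and -0.36 without that array. Ube2d2b, at 60.0 and 260.4 after sham with vehicle, 157 and 64.0 after MCAO with vehicle, 273 and 269.9 after sham with candesartan and 109 and 62.5 after MCAO with candesartan, did not pass the filter, and Ube2d3 is not analysed here.

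Among the enzymes of endoplasmic reticulum-associated degradation, Ube2j1, which is anchored in that membrane, had 1912 and 2184 after sham with vehicle, 2215 and 2616 after MCAO with vehicle, 1802 and 1608 after sham with candesartan and 2249 and 2084 after MCAO with candesartan. Within each pretreatment both MCAO pools were above both sham pools. The difference was 0.25 ± 0.099 over both pretreatments (unadjusted p = 0.0313, adjusted p = 0.458), and 0.27 without the second MCAO candesartan array. Ube2g1 was 0.28 ± 0.13 for candesartan after MCAO (adjusted p = 0.403) and 0.38 without that array. Its other probe set gave 0.050, and 0.12 without that array.

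Of the remaining conjugating enzymes, Ube2n, which builds non-degradative chains together with a Ube2v partner, had 4384 and 4649.6 after sham with vehicle, 4324 and 3853 after MCAO with vehicle, 4527 and 3718 after sham with candesartan and 4729 and 4294 after MCAO with candesartan, and its differences were -0.13 for MCAO with vehicle, 0.12 for MCAO with candesartan (0.19 without the second MCAO candesartan array) and 0.13 for candesartan after MCAO (0.20 without it). For Ube2n the other probe set gave -0.47, -0.056 and 0.19 in the same order. Without the second MCAO candesartan array the last 2 were -0.20 and 0.047. The Ube2n partner Ube2v2 had 4108 and 3622 after sham with vehicle and 3358 and 3492 after MCAO with vehicle. It had 3679.8 and 3498 after sham with candesartan and 3489 and 2211 after MCAO with candesartan. All 4 MCAO pools were below all 4 sham pools, at the closest 3492 against 3498. The difference was -0.24 ± 0.12 (adjusted p = 0.581), and it was -0.096 without the second MCAO candesartan array. Ube2s, which extends chains on substrates of the anaphase-promoting complex, was 0.20 ± 0.093 over both pretreatments (adjusted p = 0.541) and 0.13 without that array. Ube2z, which is charged by the alternative activating enzyme Uba6, was 0.22 ± 0.12 for MCAO with vehicle (adjusted p = 0.77), and Ube2q1 was -0.23 ± 0.14 (adjusted p = 0.792). Ube2c, which starts chains on those substrates in dividing cells, passed the filter on 5 of 8 arrays, with the lowest mean signal of the tested members, and Ube2t, of the Fanconi DNA repair pathway, stayed below it at 105 and 254 after sham with vehicle, 365 and 186 after MCAO with vehicle, 408 and 349.9 after sham with candesartan and 129.5 and 97.0 after MCAO with candesartan.

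Across all members, 4 separated all 4 MCAO pools from all 4 sham pools: Psme4 was higher, and Psma3, Psmb5 and Ube2v2 were lower. Of all tested probe sets, 2.83% were higher and 2.39% lower in this way. The closest MCAO and sham pools were 2053.0 and 2052.1 for Psme4 and 3492.3 and 3498.3 for Ube2v2. For Psma3 they were 5701 and 6359, and for Psmb5 19421 and 19606. The other tested probe sets of Psme4 overlapped between MCAO and sham. Of the genes with several tested probe sets, all probe sets of the gene had the same sign in 9 of 11 for MCAO with vehicle, 6 of 11 for MCAO with candesartan, 6 of 11 for candesartan after sham and 8 of 11 for candesartan after MCAO. Probe sets that were not chosen also missed the threshold. Among them another probe set of Ube2d1 gave 0.49 for MCAO with vehicle (adjusted p = 0.482) where the chosen one gave -0.021, and another of Ube2d2 gave -0.75 for candesartan after MCAO (adjusted p = 0.261) and -0.36 without the second MCAO candesartan array. For Ube2h another gave -0.47 (adjusted p = 0.334) where the chosen one gave 0.13, and without that array they gave -0.23 and 0.15.

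The members, like all tested probe sets, varied most on the second MCAO candesartan array. The median distance of its proteasome genes from their means was 0.19 on the log2 scale, against 0.05 to 0.09 on the other 7 arrays, and for the 7 alpha subunits it was 0.37. For all tested probe sets the same array had 0.18 and the others 0.09 to 0.11. Of the 61 members, 17 were highest and 17 lowest there, and 19 lay more than 0.25 from their mean, against 0 to 6 on each other array. These counts were made for the members alone, and the larger distance there is shared by all tested probe sets. Psmc3ip, a cofactor of meiotic recombination, had 1176 and 1351 after sham with vehicle, 1509 and 1504 after MCAO with vehicle, 2037 and 1487 after sham with candesartan and 1537 and 732 after MCAO with candesartan, and its differences for MCAO with candesartan, -0.54, and for the interaction, -0.75, became -0.15 and -0.35 without that array.

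Leaving out this array gave 0 members called in every comparison. Leaving out its partner, MCAO candesartan 1, left the group to the array that stood apart, assumed to vary like the other groups, and is the one setting in which members were called. Then 4 of 61 were called for MCAO with candesartan, all lower: Psma3 (-0.61), Psma1 (-0.66), Ube2v2 (-0.62) and Psmc3ip (-0.94). For candesartan after MCAO 5 were called, with Psmb7 (0.55) and Psma4 (0.55) higher and Psma1 (-0.73), Ube2v2 (-0.56) and Psmc3ip (-0.77) lower. In that setting 835 and 986 of the 10310 tested probe sets were called in the same comparisons. For the interaction Psmc3ip was called (-1.14), and for MCAO over both pretreatments Psma3 (-0.40) and Ube2v2 (-0.39), where 296 and 389 probe sets were called in all. Psma1 is named here after its values were seen.

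**Figure D4:**
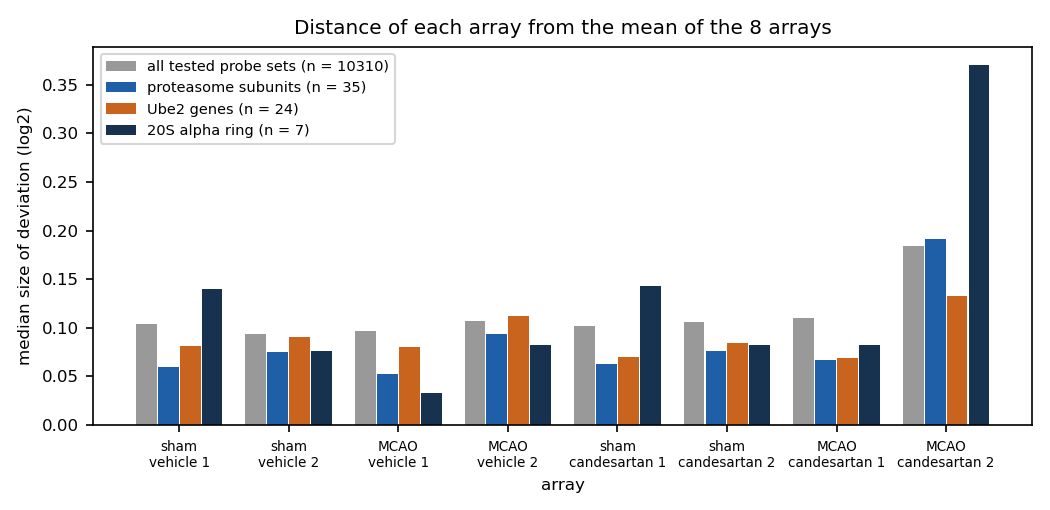
Median distance (log2) of each array from the mean of the 8 arrays, for all tested probe sets, the 35 proteasome genes, the 24 Ube2 genes and the 7 alpha subunits of the 20S core; bars are medians over genes and carry no error bar. The second MCAO candesartan array has the tallest bar of every set, 0.37 for the alpha subunits.

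Other genes of the pathway were read from 6 lists, and 1 gene in them was called. Of the activating enzymes and ubiquitin genes 6 of 12 were tested, and 0 were called in the 4 group comparisons. Uba1, the main E1, had 11814 and 12059 after sham with vehicle, 11760.2 and 11557 after MCAO with vehicle, 11154 and 11238 after sham with candesartan and 11628 and 13338 after MCAO with candesartan. Of the ligases 45 of 64 were tested, of the deubiquitinases 34 of 45, of the ubiquitin-like modifiers and their enzymes 17 of 25, and of the genes of antigen processing and the interferon response 9 of 23, and 0 were called in each of the 4 group comparisons. At an unadjusted p under 0.05 these 4 lists held 1, 2, 0 and 0 genes for MCAO with vehicle. For candesartan after MCAO they held 5, 4, 1 and 1. The shares of all tested probe sets at that p were 7.04% and 13.1% in these 2 comparisons. The 9 antigen processing and interferon genes had a median of 0.16 for MCAO with vehicle, with 8 above 0, and of 0.19 for candesartan after sham, with 9 above 0, beside 0.01 for all tested probe sets in both (smallest adjusted p = 0.74 and 1). For MCAO with candesartan their median was -0.25 with 1 above 0, and for candesartan after MCAO -0.22 with 2 above 0, beside -0.03 for all in both (smallest adjusted p = 0.366 and 0.31). Of all tested probe sets 52.5%, 52.7%, 44.7% and 44.2% were above 0 in these 4 comparisons, in the order given. The first 2 comparisons subtract the same sham vehicle pools, and the last 2 share the MCAO candesartan pools. With the second MCAO candesartan array left out, the medians of the last 2 were -0.31 and -0.18, with 1 above 0 in each. The smallest p-values among the 4 lists for candesartan after MCAO were those of the deubiquitinase Usp48 (-0.65, adjusted p = 0.222) and the ligase Siah1 (-0.74, adjusted p = 0.251), which were -0.41 and -0.47 without that array.

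Of the genes for proteasome assembly, regulation and shuttling 24 of 26 were tested. Zfand2a, a stress-induced zinc finger protein that binds the 19S cap, was the 1 gene called. Its signal was 1428 and 1225 after sham with vehicle, 2324 and 3332 after MCAO with vehicle, 1323 and 1342 after sham with candesartan and 568 and 305 after MCAO with candesartan. Both MCAO vehicle pools were the highest and both MCAO candesartan pools the lowest. The MCAO candesartan signals of Zfand2a lay below the filter of 916.3, the second also below the 370 added before the log2. The size of differences that use them is therefore uncertain. Candesartan minus vehicle after MCAO was -1.99 ± 0.21 (adjusted p = 0.0155), so it fell, and -1.75 without the second MCAO candesartan array (adjusted p = 0.0151). With only the MCAO groups in the fit the adjusted p was 0.201, with no filter it was 0.0998, and without any one pool of the other 3 groups it lay between 0.0536 and 0.165. MCAO minus sham was 0.90 ± 0.21 with vehicle and -1.10 ± 0.21 with candesartan, and the interaction was -2.00 ± 0.29 (adjusted p = 0.0918). Without the second MCAO candesartan array the last 2 values were -0.86 and -1.76.

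Nfe2l1, the factor named above for the proteasome genes, had 3876 and 4953 after sham with vehicle, 3429 and 4044 after MCAO with vehicle, 4143 and 4013 after sham with candesartan and 3851 and 3991 after MCAO with candesartan, with MCAO minus sham of -0.22 ± 0.14 with vehicle (adjusted p = 0.83). Nfe2l2, the related factor of the oxidative stress response, had 1199.8 and 1376 after sham with vehicle, 1734 and 1787 after MCAO with vehicle, 1397 and 1316 after sham with candesartan and 1397 and 1279 after MCAO with candesartan. Both MCAO vehicle pools were the highest, 0.36 ± 0.15 above sham (unadjusted p = 0.0303, adjusted p = 0.631). Zfand5, another zinc finger protein of the proteasome, was 0.25 ± 0.082 for MCAO over both pretreatments (adjusted p = 0.316) and 0.20 without the second MCAO candesartan array, and Psmf1, the core inhibitor PI31, was -0.42 ± 0.14 for candesartan after sham (adjusted p = 1).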

How the data were processed

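RNA of 2 rats was pooled on each of the 8 arrays; the 4 groups, of 2 independent pools each, were taken from the labels' source names and descriptions. The deposited values are probe set intensity on a linear scale, made by the authors with GCOS, per the submitters' processing notes; all 8 arrays have the same 2% trimmed mean, 2500, as scaling to that value gives. No background step was repeated, and the number of arrays limits the precision.

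Of 15923 probe sets, 57 controls were left out. Signals were taken as log2(signal + 370), 370 being the 20th percentile of all values, and the 10310 probe sets above 916.3 on at least 2 of 8 arrays were fitted with limma 3.58.1 in R 4.3.3 (lmFit and eBayes, group means, residual df 4, prior df 6.63, Benjamini-Hochberg threshold 0.05). The platform annotation gives 1 symbol to 12789 probe sets, several to 312 and none to 2771; nothing was named from those with several, 11 of which include a member's name. In all, 6 contrasts were made: MCAO against sham and candesartan against vehicle within each level of the other factor, their interaction, and MCAO against sham over both. With 2 pools against 2, an exact permutation test cannot go below 0.333, so none is reported.

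Members and lists were chosen with earlier results of these data known. Named were called members, up to 5 per direction and contrast with the smallest p, the catalytic, inducible, activator and other members listed by role, those at the ends of the signal range, below the filter or with a differing second probe set, called genes and those with the smallest p of the pathway lists, and further members where a role group is described. Offset, filter, scaling, probe set choice, fit and arrays were varied as alternatives. The script was tested on simulated data. Figures were drawn with matplotlib 3.10.9.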

Additional observations from a re-analysis of the deposited data

How the results depend on the processing

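The count of called members was 0 in all 6 comparisons under each alternative other than leaving out an array, the replicate block included. Pool numbers did not pair the samples: the correlation of same-numbered deviations between groups ran from -0.095 to 0.137, and the fit with the replicate block called 0 members in each comparison. Leaving out 1 array gave 0 to 4 called members for MCAO with candesartan, 0 to 5 for candesartan after MCAO, 0 to 1 for the interaction and 0 to 2 for MCAO over both pretreatments; the counts above 0 came without the first MCAO candesartan pool. With arrays centred on their medians, the proteasome genes' medians were -0.113, 0.106, -0.091 and 0.122 for MCAO with vehicle, MCAO with candesartan, candesartan after sham and candesartan after MCAO, and those of the Ube2 genes -0.110, 0.146, -0.130 and 0.118. Centring shifts all probe sets of an array alike, so the medians over all tested probe sets moved by the same amounts. With quantile normalization the proteasome genes had 0.010 for MCAO with candesartan and -0.008 for candesartan after MCAO, and with cyclic loess 0.006 for the latter. With the mean of all probe sets of a gene the Ube2 genes had -0.002 for MCAO with candesartan and -0.036 for candesartan after MCAO, and with no filter -0.019 for candesartan after sham. Leaving out 1 array, the proteasome medians ranged from -0.060 to -0.047, -0.009 to 0.054, -0.041 to 0.003 and -0.008 to 0.054 in the same order of comparisons, and the Ube2 medians from -0.056 to 0.002, 0.002 to 0.083, -0.098 to -0.016 and -0.029 to 0.039. Psmc3ip for candesartan after MCAO changed sign without the second MCAO candesartan pool, to 0.024 (-0.767 without the first), among 19 of 61 members that did so in this comparison. The call of Zfand2a for candesartan after MCAO was lost with no filter (adjusted p = 0.0998) and with only the compared groups in the fit (adjusted p = 0.201); its difference for MCAO with vehicle became a call with array weights (adjusted p = 0.0254) and with only the compared groups (adjusted p = 0.0337). The causes of these shifts were not tested. Precision is limited by 2 pools a group and, for dim probe sets, by the signal over background.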
